A study of Mus musculus with 8 samples.

Results

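Endothelial nuclei of the developing paraflocculus and flocculus (PF/F, cerebellar lobules that serve balance and eye movement) were taken from single-nucleus RNA libraries as the nuclei that the deposited annotation calls Endothelial. There were 183 of them among 48237 annotated PF/F nuclei (0.379%), and the annotation divides the PF/F into 16 types. The PF/F libraries were made from wild-type (WT) mice and from littermates carrying 1 functional copy of the transcription factor gene Tbx1 (Tbx1+/-), all at postnatal day 5.5, of both sexes and on a C57BL/6J background. Each library pooled tissue of 5 mice, and there were 2 libraries per genotype, numbered replicates 1 and 2. The study worked with 2 batches of animals of each genotype, but the sources used here do not tie the replicate numbers to them. The same design gave 4 libraries of the petrous temporal bone (PTB), the skull bone that encases the PF, and the series held 121135 barcodes in all. Tbx1 was reduced in the whole animal rather than in endothelium alone, and a library is a pool of mice, so the spread between libraries is not the spread between single animals.

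Endothelial cells line all blood vessels. In the brain they form the blood-brain barrier: claudin and other tight junction proteins close the gaps between cells, vesicular transport is kept low, and dedicated carriers bring in glucose, amino acids, lactate, iron and lipids. The barrier program is maintained by Wnt/beta-catenin signalling in the endothelium, vessel sprouting is driven by vascular endothelial growth factor (VEGF) and restrained by Notch, and pericytes wrap the capillaries from outside. Tbx1, a T-box factor of the chromosome segment deleted in 22q11.2 deletion syndrome, is known to act in brain endothelium on Flt4, which encodes the receptor VEGFR3, and on the Notch ligand gene Dll4.

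The endothelial nuclei numbered 15 in the WT library of replicate 1, 48 in the Tbx1+/- library of replicate 1, 55 in the WT library of replicate 2 and 65 in the Tbx1+/- library of replicate 2. They held 65387, 142949, 188893 and 280488 unique molecular identifiers (UMIs, counted transcript molecules) in the same order, so the WT library of replicate 1 gave the least precise values. Their median depth was 2925 UMIs per nucleus, against 3034 over all annotated nuclei. Levels are UMIs summed over the endothelial nuclei of a library, per 1000000 of their UMIs over all genes (CPM), and a mean is given with its SD over the 4 libraries. Of the 183 barcode sequences, 4 also occurred in another PF/F library. The ratio of the study's background-corrected UMIs to raw UMIs had a median of 0.728 to 0.813 over the 4 libraries; raw UMIs were used here, so each level includes free RNA, and doublets were not removed.

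The label matched the genes that define the cell type. Flt1, which encodes the VEGF receptor VEGFR1, had a UMI in 96.2% of the endothelial nuclei (95% Wilson interval 92.3 to 98.1%), against 0.952% of differentiated granule neurons, whose median depth was 2973 UMIs, and 47.3% of pericytes, with a median of 2534.5 UMIs. The adhesion molecule gene Pecam1 (CD31) was detected in 66.7% of endothelial nuclei and in 1.73% of granule neurons. Cdh5, which encodes the VE-cadherin of endothelial junctions, was detected in 57.4% and 0.530%. A UMI of Flt1, Pecam1 or Cdh5 was missing in 2 endothelial nuclei, and 164 held 3 or more. All 16 genes of a pan-endothelial list were detected, and 15 of them had their highest mean CPM in the endothelial nuclei among the 16 types. The exception was Emcn, a sialomucin gene of venous and capillary endothelium, at 163 ± 37.6 CPM in endothelial nuclei and 188 ± 48.3 CPM in pericytes.

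**Figure D1:**
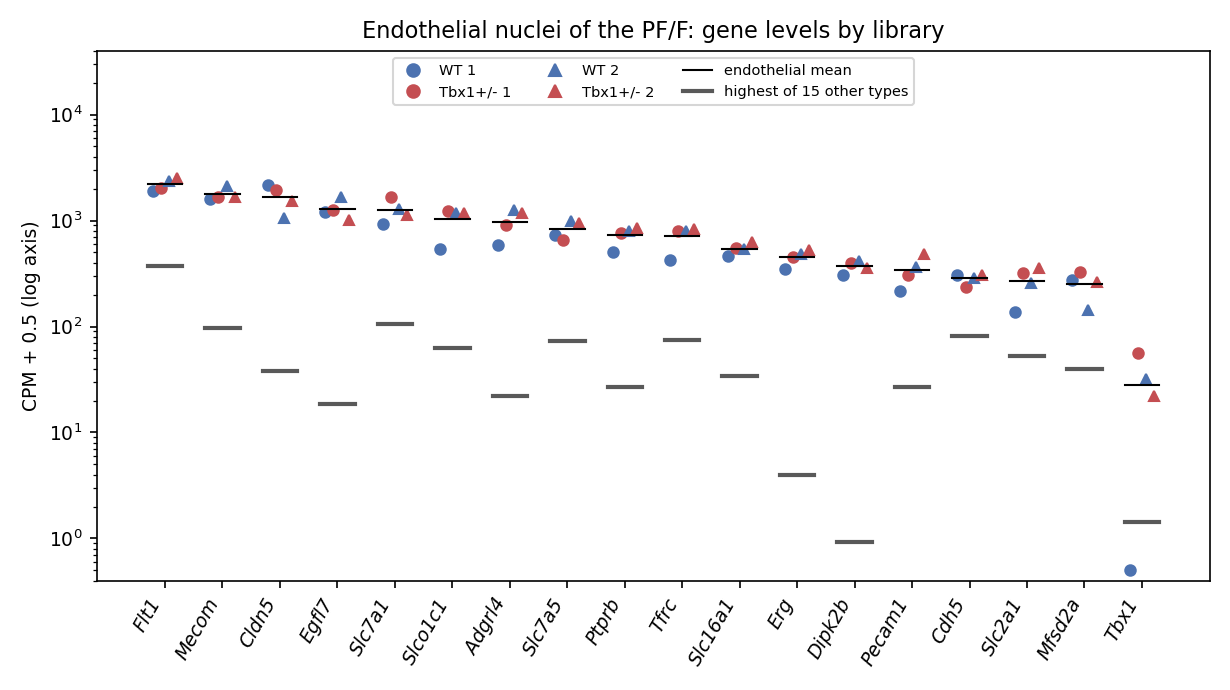
Level of the named genes in the endothelial nuclei of the 4 PF/F libraries (points), their mean (thin bar) and the highest mean among the 15 other types (grey bar), in CPM with 0.5 added on a log axis; levels are not set between genes, since reads from introns make them depend on gene length. The point of Tbx1 for the WT library of replicate 1 sits at 0.5 because no UMI was counted there, while Flt1 lay between 1912 and 2546 CPM in all 4 libraries.

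The nuclei were grouped by their genes when they were annotated, so comparisons of levels with other types are a description without a test. Among the 2398 genes with at least 100 CPM on average, the 20 with the largest ratio to the highest other type (0.5 CPM added to both) had ratios of 13.9 to 400.3. Dipk2b, on the X chromosome, led with 306, 399, 413 and 357 CPM in WT replicate 1, Tbx1+/- replicate 1, WT replicate 2 and Tbx1+/- replicate 2, against at most 0.422 CPM in any other type. Erg, an ETS factor that maintains endothelial identity, followed with 352, 448, 482 and 528 CPM and a ratio of 115. Egfl7, which encodes a secreted angiogenic factor, had 1208, 1259, 1683 and 1013 CPM and a ratio of 68.8. The 4 libraries lay close together for each of these genes, far above all other types. Further leading genes were the surface receptor genes Adgrl4, Robo4, Cd93 and Aplnr, the phosphatase gene Ptprb, the transcription factor genes Sox7, Mecom, Bcl6b and Zfp366, the tight junction gene Cldn5, the transporter genes Slco1c1 and Slc16a1, the carbonic anhydrase gene Car4, and AU021092 and Ushbp1. In 7 of the 20 the highest other type was Pericyte. Flt1 was not among the 20, since pericytes held 375 ± 117 CPM of it and its ratio was 5.88.

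The remaining leading genes were the haemoglobin genes Hbb-bt and Hba-a2, which red blood cell precursors express. Summed over 6 erythroid genes, the endothelial nuclei held 321, 679, 985 and 19484 CPM in the order above, so the Tbx1+/- library of replicate 2 stood apart. In that library 2 nuclei had over 5% of their UMIs in erythroid genes, 41.5% of 11008 UMIs in one and 5.61% of 14089 UMIs in the other. Without these 2 nuclei the sum was 403 CPM, and 17 of the 20 leading genes were the same.

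Promoters of 4 genes are shown because they carry the identity of these nuclei (Flt1, Egfl7), their barrier (Cldn5) and the targeted gene (Tbx1). They are RefSeq sequences of the assembly GRCm38.p6, from 250 bases before to 50 bases after a transcription start, 5′ to 3′ on the gene's strand. Capitals mark each AGGAAG or its reverse complement CTTCCT, a core that ETS factors such as ERG bind.
Flt1, chr5:147725962-147726261, minus strand: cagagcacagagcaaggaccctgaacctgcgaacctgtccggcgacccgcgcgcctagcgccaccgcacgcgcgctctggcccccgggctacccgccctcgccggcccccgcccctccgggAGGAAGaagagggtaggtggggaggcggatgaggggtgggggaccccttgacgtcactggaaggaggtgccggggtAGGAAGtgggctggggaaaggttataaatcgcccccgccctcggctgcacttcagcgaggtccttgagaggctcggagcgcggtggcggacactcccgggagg
Egfl7, chr2:26580833-26581132, plus strand: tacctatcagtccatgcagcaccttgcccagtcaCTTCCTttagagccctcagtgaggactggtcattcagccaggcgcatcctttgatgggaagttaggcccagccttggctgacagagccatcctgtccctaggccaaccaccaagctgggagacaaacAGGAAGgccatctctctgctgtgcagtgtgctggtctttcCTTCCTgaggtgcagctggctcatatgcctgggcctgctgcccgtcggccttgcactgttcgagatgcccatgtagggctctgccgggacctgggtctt
Cldn5, chr16:18776597-18776896, plus strand: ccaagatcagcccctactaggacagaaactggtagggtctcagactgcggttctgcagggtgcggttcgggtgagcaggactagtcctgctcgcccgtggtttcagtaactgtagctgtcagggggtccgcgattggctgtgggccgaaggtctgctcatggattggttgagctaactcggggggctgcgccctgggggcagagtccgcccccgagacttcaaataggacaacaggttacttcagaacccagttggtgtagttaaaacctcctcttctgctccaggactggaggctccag
Tbx1, chr16:18590622-18590921, minus strand: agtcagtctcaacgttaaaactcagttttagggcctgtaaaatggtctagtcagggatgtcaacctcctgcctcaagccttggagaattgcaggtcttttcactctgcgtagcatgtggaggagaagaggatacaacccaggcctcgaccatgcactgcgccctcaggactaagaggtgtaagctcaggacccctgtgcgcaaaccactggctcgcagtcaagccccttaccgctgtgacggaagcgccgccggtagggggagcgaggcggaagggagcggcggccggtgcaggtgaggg
The Flt1 window held 2 matches and the Egfl7 window 3; the first of 3 Egfl7 promoters in RefSeq is printed, and the others held 2 and 0. For Cldn5 and Tbx1, these letters did not occur in the printed windows or in the other Tbx1 promoter. AGGAAG was found on either strand in 35.4% of 32851 RefSeq promoters of the same length, in 10 of 14 promoters of the pan-endothelial list, in 12 of 21 of the barrier transporter list, in 2 of 10 of the tight junction list and in 3 of 13 of the endothelial transcription factor list. It was 1 of 15 motifs searched, and a match is a description of the letters only. Cldn5 (chr16:18776847-18778262) and Tbx1 (chr16:18580979-18590671) lie on the same chromosome, with 186176 bases from the end of Tbx1 to the start of Cldn5.

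Transcription factors of the endothelial lineage were present as a group. All 16 genes of the list had a UMI and all 16 had their highest mean in the endothelial nuclei. Their summed level was 5084 ± 890.2 CPM, against 908 CPM in pericytes and 1067 CPM in immune nuclei, the highest other type. Some led narrowly: Epas1 was at 260 ± 31.3 CPM against 244 ± 106 CPM in pericytes. Fli1 was at 835 ± 262 CPM against 688 ± 140 CPM in immune nuclei. Mecom, a zinc finger factor, was found in 93.4% of endothelial nuclei, against 0.520% of granule neurons. Its level was 1591, 1672, 2128 and 1661 CPM in WT replicate 1, Tbx1+/- replicate 1, WT replicate 2 and Tbx1+/- replicate 2. Sox17, a SOX factor of arterial and barrier endothelium, had a mean of 78.9 ± 21.1 CPM and was at most 1.5 CPM on average in any other type. The forkhead gene Foxq1, of brain endothelium, had a mean of 96.7 ± 46.2 CPM, with a lowest library of 45.9 CPM.

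Tight junction genes were led by Cldn5, which encodes claudin-5, the principal claudin of the blood-brain barrier. It was detected in 92.3% of endothelial nuclei, against 9.17% of granule neurons and 8.11% of pericytes. Its level was 2156, 1945, 1048 and 1533 CPM in the same order of libraries, and both replicate 1 libraries lay above both replicate 2 libraries. The highest other type was Pericyte with 37.9 ± 32.7 CPM. Of the 10 listed genes 9 had a UMI and 8 were highest in endothelial nuclei. Tjp1 (the scaffold ZO-1) had 970.1 ± 126 CPM but also 545 ± 74.8 CPM in astroglia. Ocln (occludin) and Lsr, a component of junctions where several cells meet, had means of 89.5 ± 33.5 and 95.6 ± 24.5 CPM.

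Transporters of the barrier were the next group. Each of the 183 nuclei held at least 1 UMI of the 15 genes, 14 of which were highest in endothelial nuclei, and the summed level was 6660 ± 1381 CPM against 823 CPM in pericytes. Slco1c1, a thyroid hormone carrier, was detected in 68.3% of the nuclei and had 535, 1231, 1181 and 1184 CPM in WT replicate 1, Tbx1+/- replicate 1, WT replicate 2 and Tbx1+/- replicate 2. The first of these libraries, the one with 15 nuclei, lay below the other 3, as it did for the summed list (4603 against 7210 to 7576 CPM). Slc2a1 (the glucose transporter GLUT1) was detected in 56.3% of the nuclei at 269 ± 96.3 CPM. Mfsd2a, a lipid transporter that restrains transcytosis, was detected in 40.4% at 253 ± 78.5 CPM. The amino acid carriers Slc7a1 and Slc7a5 had 1255 ± 314 and 831 ± 161 CPM, the lactate carrier Slc16a1 had 543 ± 66.3 CPM, and Tfrc, the transferrin receptor for iron uptake, had 712 ± 189.7 CPM. The efflux pump gene Abcb1a (P-glycoprotein) had 274 ± 105 CPM. Each of these genes lay above every other type by a ratio of 5.15 or more. Slco1a4, an organic anion carrier of adult brain endothelium, was found in 9.29% of the nuclei.

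Genes of caveolae and permeability were uneven. Plvap, which forms the diaphragms of fenestrae and caveolae, had UMIs in 4 of 183 nuclei (2.19%, Wilson interval 0.853 to 5.48%). It was detected in 0.842% of granule neurons, and its CPM of 0, 7.0, 5.29 and 7.13 did not exceed the highest other type, with 11.3 ± 5.26 CPM. The 7 listed genes summed to 303 ± 20.3 CPM, against 97.9 CPM in the highest other type (RL.early), and 5 of them were highest in endothelial nuclei. Nos3 made up most of this sum, at 160.2 ± 18.4 CPM.

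Genes of the Wnt/beta-catenin pathway that sustains the barrier all had UMIs, and 8 of 15 were highest in endothelial nuclei. Apcdd1, a Wnt target and inhibitor, had 566, 658, 847 and 595 CPM in the order of libraries above. Lef1, a transcription factor of the pathway, had 489, 441, 609 and 371 CPM. Notum, which encodes a secreted Wnt deacylase, had 0, 56.0, 63.5 and 46.3 CPM, and the receptor gene Fzd4 had a mean of 30.8 ± 20.4 CPM. The libraries overlapped between genotypes for Apcdd1 and Notum, and for Lef1 both WT libraries lay above both Tbx1+/- libraries, a log2 difference of -0.42 (SE 0.39, edgeR adjusted p 1.00).

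Among VEGF and angiopoietin receptors, Kdr (VEGFR2, the main signalling receptor) had 413, 658, 609 and 667 CPM and Tek (TIE2) had 199, 546, 831 and 481 CPM. Flt4 was detected in 31 nuclei (16.9%) and had 15.3, 42.0, 79.4 and 53.5 CPM, against at most 4.74 ± 1.14 CPM in another type. Dll4, the Notch ligand of tip and arterial cells, was detected in 24 nuclei (13.1%), with 15.3, 83.9, 15.9 and 49.9 CPM. Both Tbx1+/- libraries thus had a higher Dll4 level than both WT libraries, which rested on 1 and 2 nuclei with a UMI in WT and 7 and 14 in Tbx1+/-. Dll4 was removed by the filter on low counts in the comparison of genotypes. With no filter its log2 difference was 2.07 (SE 0.76, edgeR adjusted p 0.987), and that of Flt4 was -0.16 (SE 0.59, edgeR adjusted p 0.987). The Notch list as a whole was not highest in endothelial nuclei, at 617 ± 117 CPM against 751 CPM in pericytes, and 13 genes of TGF-beta and BMP signalling summed to 2042 ± 77.5 CPM.

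Arterial and venous genes were sparse and mixed. The arterial gap junction gene Gja5 had a UMI in 0 of 183 nuclei, which at a limit of 3 counts allows a share of nuclei with a UMI of up to 1.64%, and the arterial kinase gene Bmx was found in 3 nuclei. Efnb2, the arterial ephrin ligand gene, was found in 10.4% of the nuclei, against 4.66% of granule neurons and 6.76% of pericytes. Its level of 43.6 ± 18.9 CPM lay below that of meningeal nuclei, at 92.1 ± 20.8 CPM. On the venous and capillary side Vwf, which encodes von Willebrand factor, was found in 42.1% of the nuclei and 0.520% of granule neurons. Slc38a5, a glutamine carrier, was found in 38.8% and 1.04%. Nr2f2, a venous fate factor, was found in 26.2% of endothelial nuclei and in 26.0% of granule neurons, so its detection did not set the 2 types apart. Whether it marks veins among the endothelial nuclei was not tested. Counting nuclei with any UMI of each list, 147 held a venous gene, with Nr2f2 on that list, and 61 an arterial gene, 50 held both and 25 neither. The same counts were not made in other types, so they have no background value. The nuclei that held both were deeper, at a median of 4288.5 UMIs, than those that held neither, at 2395 UMIs.

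Sprouting and dividing nuclei were sought with 2 further lists. Aplnr, the apelin receptor gene, had 107, 147, 106 and 139 CPM, and Apln, the ligand gene of tip cells, was found in 21 nuclei (11.5%). The 12 cell-cycle genes summed to 1881, 1756, 990 and 706 CPM in WT replicate 1, Tbx1+/- replicate 1, WT replicate 2 and Tbx1+/- replicate 2, so both replicate 1 libraries lay above both replicate 2 libraries. The highest type was the granule neuron progenitors, at 2795 CPM. Top2a, a topoisomerase of dividing cells, had a UMI in 24.6% of endothelial nuclei and Mki67, the proliferation marker, in 21.3%. But 14.0% and 13.1% of differentiated granule neurons held one too, and pericytes lay above the endothelial nuclei, at 33.8% and 24.3%. The 38 nuclei with 5 or more cell-cycle UMIs were 6, 11, 8 and 13 by library, with a median depth of 4369.5 UMIs against 2691 UMIs in the other 145. They were 40% of the endothelial nuclei of WT replicate 1, which is 6 of 15 nuclei, and 14.5 to 22.9% in the others. Barrier transporters were at 5373 CPM in these 38 nuclei (exact Poisson interval 5057 to 5704) and at 7758 CPM (7511 to 8012) in the other 145. The difference was not particular to transporters: pan-endothelial genes were at 7289 and 10176 CPM, endothelial transcription factors at 4151 and 5818 CPM and Wnt pathway genes at 1861 and 2818 CPM. Granule neuron genes, at 614 and 423 CPM, and fibroblast genes, at 150 and 52.4 CPM, were higher in the 38 nuclei. Each set held 1 of the 2 erythroid-rich nuclei: erythroid genes were at 23155 and 2363 CPM with them and at 364 and 730 CPM without them, while barrier transporters were at 5390 and 7733 CPM without them. These intervals, like the others given here for summed UMIs, cover counting error only.

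Markers of other cell types that the annotated nuclei could hold were present at differing levels. Pdgfrb, the receptor gene that defines pericytes, was found in 8.74% of endothelial nuclei and 94.6% of pericytes. The 10 pericyte genes summed to 474, 476, 275 and 553 CPM by library, the last of which was 345 CPM without the 2 erythroid-rich nuclei, against 7599 CPM in pericytes, and 19 nuclei held 3 or more of their UMIs. Smooth muscle genes had 2 UMIs in all. Fibroblast genes summed to 71.7 ± 38.6 CPM, against 3198 CPM in meningeal nuclei, and immune genes to 165 ± 26.3 CPM, against 5273 CPM in immune nuclei. Granule neuron genes were at 856, 525, 397 and 424 CPM, against 2200 CPM in differentiated granule neurons, and were highest in the library with the fewest endothelial nuclei. Basement membrane genes, which endothelial cells and pericytes both make, summed to 5460 ± 1104 CPM and to 7650 CPM in pericytes. The part of these transcripts in the levels above was not tested.

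Tbx1 itself was carried by few molecules. Of the 38 Tbx1 UMIs in annotated PF/F nuclei, 52.6% lay in the endothelial nuclei, which held 0.389% of all UMIs. The other 15 types pooled to 0.104 CPM (exact Poisson interval 0.0614 to 0.164) over 48054 nuclei. Pericytes held 0 Tbx1 UMIs of 216921, for which the interval reaches 17.0 CPM, and by library it reaches 54.6 to 105.8 CPM. By library the endothelial level was 0 CPM in WT replicate 1, 56.0 CPM (24.2 to 110.3) in Tbx1+/- replicate 1, 31.8 CPM (11.7 to 69.1) in WT replicate 2 and 21.4 CPM (7.85 to 46.6) in Tbx1+/- replicate 2. The interval of the first library reached 56.4 CPM, so all 4 intervals overlapped. The mean was 15.9 CPM in WT and 38.7 CPM in Tbx1+/-, a difference of 22.8 CPM against a pooled SD within genotypes of 23.5 CPM. Tbx1 was removed by the filter on low counts, and with no filter its log2 difference was 0.70 (SE 0.80, edgeR adjusted p 0.987). The counts come from the 3′ end and include introns, and the deleted exons of the allele are not named in the sources used here, so these values are no check of the genotype.

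**Figure D2:**
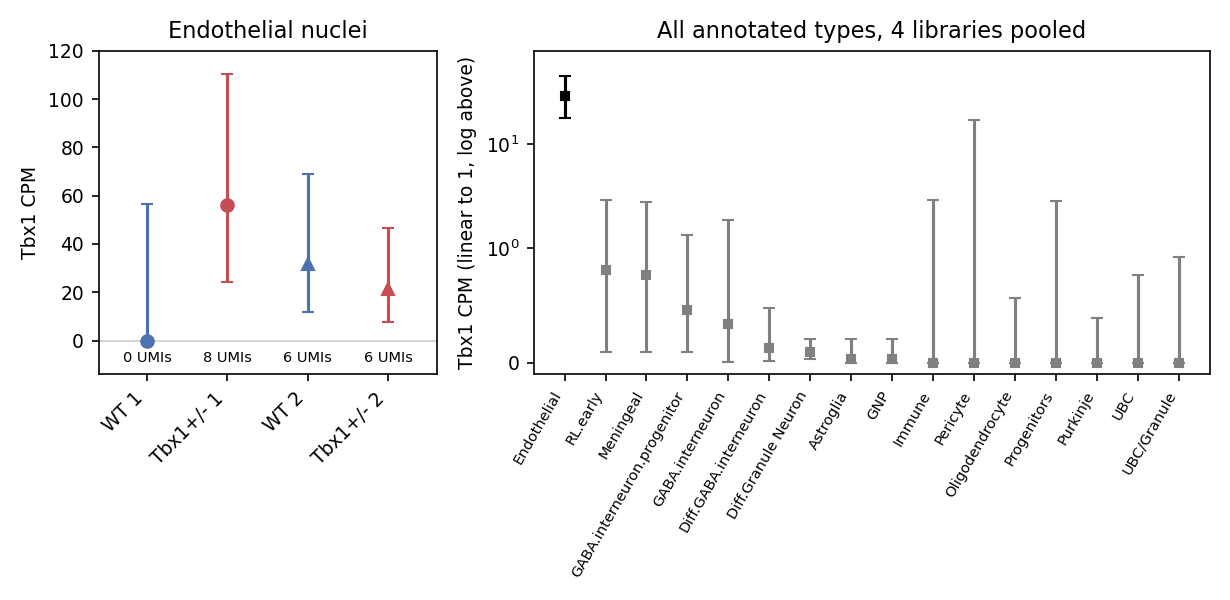
Tbx1 level in CPM with exact 95% Poisson intervals, left in the endothelial nuclei of each PF/F library with the UMI count written below, right in each annotated type with the 4 libraries pooled (axis linear to 1 and log above). The intervals of the 4 libraries overlap. The pooled endothelial interval (18.0 to 45.6 CPM) lies above those of all 15 other types, of which the pericytes, with 0 UMIs, have the highest upper bound (17.0 CPM). This separation from pericytes holds for the pooled counts only: by library the pericyte intervals reach 54.6 to 105.8 CPM.

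Barcodes that the annotation leaves out were also measured. A marker rule (at least 1000 genes detected, at least 3 UMIs of Flt1, Pecam1 and Cdh5, and these at 500 CPM or more of the barcode) picked 313 PF/F barcodes, of which 163 were annotated Endothelial, 115 were unannotated and 35 had another annotated type, 11 each Meningeal and Pericyte. The unannotated 115 were deep, with a median of 9257 UMIs, against 3025 UMIs in the 163 annotated Endothelial. The study left out nuclei that were outliers in total UMIs, genes detected or mitochondrial share. Whether these barcodes are doublets was not tested. They held 58 Tbx1 UMIs, a level of 36.5 CPM (27.7 to 47.1). By library their level was 17.9 CPM (2.16 to 64.6) in WT replicate 1, 37.8 CPM (20.7 to 63.4) in Tbx1+/- replicate 1, 32.1 CPM (19.6 to 49.5) in WT replicate 2 and 45.4 CPM (28.4 to 68.7) in Tbx1+/- replicate 2. Both Tbx1+/- values lay above both WT values, and all 4 intervals overlapped. In the WT library of replicate 1 these barcodes held 2 Tbx1 UMIs, where the annotated nuclei held 0.

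The first genotype comparison asked whether endothelial nuclei were more or fewer in Tbx1+/- PF/F. Their share of annotated nuclei was 0.122% in WT replicate 1 (Wilson interval 0.0742 to 0.202%), 0.347% (0.262 to 0.460%) in Tbx1+/- replicate 1, 0.601% (0.462 to 0.781%) in WT replicate 2 and 0.5% (0.393 to 0.637%) in Tbx1+/- replicate 2. Both Tbx1+/- shares lay between the 2 WT shares. The log2 difference was 0.26 (SE 0.81), with an adjusted p of 0.976 in edgeR's quasi-likelihood test over 16 types, of which 0% were called at a false discovery rate of 0.1. Its direction depended on single libraries: the log2 difference was -0.50 without the WT library of replicate 1 and 1.78 without the WT library of replicate 2. Endothelial nuclei per pericyte nucleus were 1.25 in WT replicate 1 and 2.67, 2.89 and 2.60 in Tbx1+/- replicate 1, WT replicate 2 and Tbx1+/- replicate 2. A lower share of nuclei cannot be told apart from a poorer recovery of vessels when the nuclei were isolated.

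**Figure D3:**
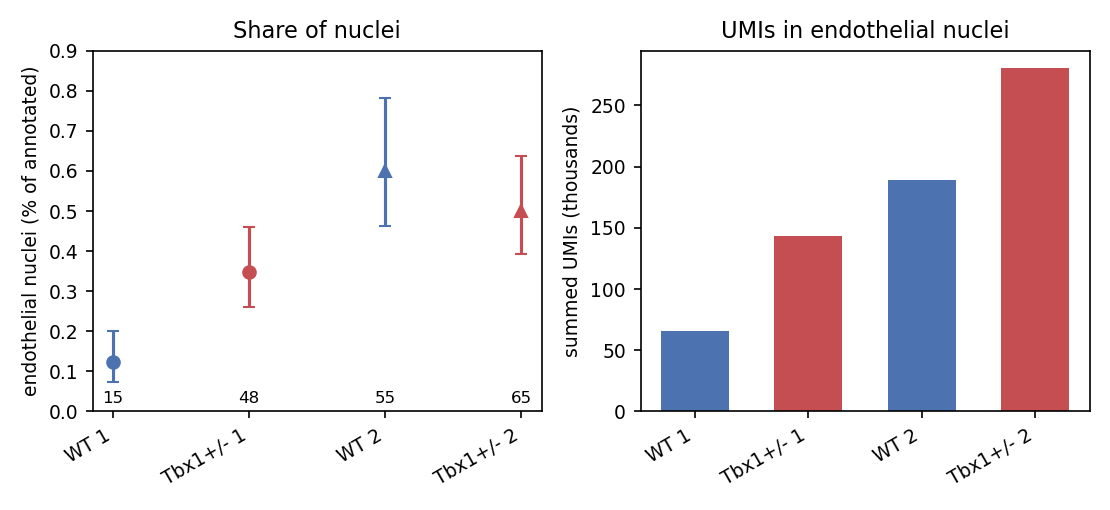
Left, endothelial share of annotated PF/F nuclei by library, in percent with 95% Wilson intervals and the number of nuclei below each point; right, the summed UMIs of these nuclei. The WT libraries, at 0.122% and 0.601%, lie on either side of both Tbx1+/- libraries.

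The second comparison tested each gene between Tbx1+/- and WT endothelial nuclei. Of 4447 genes with enough counts, 0% were called at an adjusted p under 0.05 and over 1.5-fold in edgeR's quasi-likelihood test, with 64 genes at an unadjusted p under 0.05 and a smallest adjusted p of 1.00. DESeq2 called 0 as well, with 14 at an unadjusted p under 0.05. The median log2 difference (Tbx1+/- minus WT) was 0.02. In data simulated from these libraries, 57.5% of the genes given a log2 change of 2 were recovered and 0.4% of those given a change of 1, so changes of the smaller size were not detectable at this depth. Counts that leave out 1 library ran from 1 to 9 genes: 9 without WT replicate 1, 6 without Tbx1+/- replicate 1, 9 without WT replicate 2 and 1 without Tbx1+/- replicate 2. Without a filter on low counts, 7 of 17196 genes were called.

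Identity genes differed little against their errors. Flt1 had 1912 and 2340 CPM in WT and 2043 and 2546 CPM in Tbx1+/-, a log2 difference of 0.14 (SE 0.37). Cldn5 had 2156 and 1048 CPM in WT and 1945 and 1533 CPM in Tbx1+/-, a log2 difference of 0.15 (SE 0.44), and the WT libraries lay on either side of the Tbx1+/- libraries. Mecom differed by -0.13 (SE 0.37). Of the barrier transporters 13 of 15 had a positive difference, with a median of 0.35 and 0 called; the WT library of replicate 1, the one with the fewest summed UMIs, was low for this list. Pan-endothelial genes had a median of 0.19 over 15 tested, tight junction genes 0.18 over 8, the transcription factors 0.01 over 12 and Wnt pathway genes 0.05 over 10, with 0 called in each.

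Among the 5 genes with the smallest p-values, a single nucleus often held a large part of a library's count. Kcnip4, a potassium channel subunit of neurons, had 3 and 22 UMIs in the WT libraries of replicates 1 and 2 and 70 and 161 in the Tbx1+/- libraries, a log2 difference of 2.58 (SE 0.47). It was found in 2 and 10 WT nuclei and in 15 and 23 Tbx1+/- nuclei. Single nuclei held 50 and 60 of the Tbx1+/- UMIs in replicates 1 and 2, and all annotated nuclei together held 2149 to 3008 CPM of this gene. Khdrbs2, an RNA-binding protein of neurons, had 5 and 28 UMIs in WT and 0 and 4 in Tbx1+/- (-3.59, SE 0.81), with 21 of them in 1 nucleus. Nxph1, a secreted neurexin ligand of neurons, had 1 and 6 UMIs in WT and 13 and 126 in Tbx1+/- (3.41, SE 0.82), of which 120 lay in 1 nucleus. The haemoglobin gene Hba-a1 had 2 and 27 UMIs in WT and 20 and 865 in Tbx1+/- (4.06, SE 1.16), with 726 of them in 1 nucleus, and its log2 difference was 0.03 without the 2 nuclei rich in erythroid UMIs. Slco1a4, the only barrier gene of the 5, had 1 and 3 UMIs in WT and 18 and 25 in Tbx1+/- (2.72, SE 0.64), in 1 and 3 WT nuclei and 5 and 8 Tbx1+/- nuclei. With the unannotated endothelial barcodes included its difference was -0.32, and those of Kcnip4, Khdrbs2, Nxph1 and Hba-a1 were 1.33, -1.20, 1.71 and 0.84. The edgeR adjusted p of all 5 was 1.00. Kcnip4, Khdrbs2, Nxph1 and Hba-a1 were among the 7 genes called with no filter on low counts, with edgeR adjusted p from 4.29e-08 to 0.00145, and each was also called in some fits that left out 1 library.

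**Figure D4:**
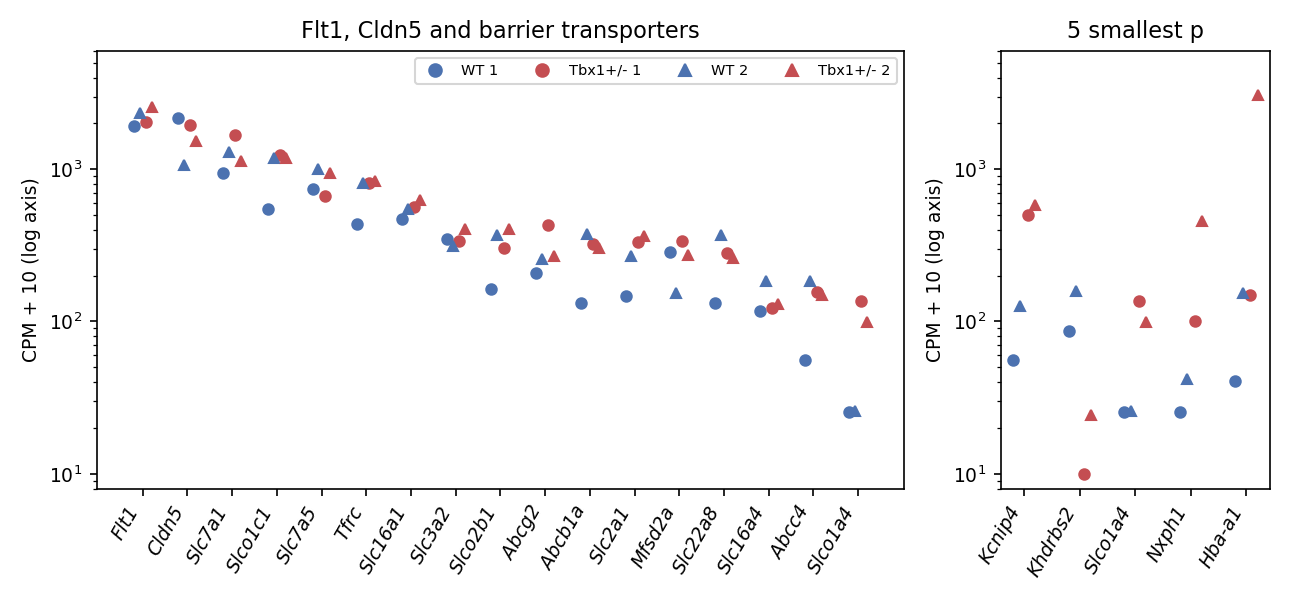
Levels in the endothelial nuclei of each library (CPM with 10 added, log axis; colour gives the genotype, shape the replicate number), left for Flt1, Cldn5 and the 15 barrier transporters and right for the 5 genes of smallest p. On the left WT and Tbx1+/- points intermingle for most genes and the WT library of replicate 1 is often lowest; on the right Hba-a1 reaches 3084 CPM in the Tbx1+/- library of replicate 2.

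The third comparison set endothelial barcodes of the PF/F against those of the PTB, chosen by the same marker rule in both tissues. The rule picked 313 barcodes in the PF/F and 3469 of 63177 in the PTB. Of the 3469, 3108 were unannotated and 361 carried a type of the deposited bone annotation. Unannotated barcodes held most UMIs of the PF/F side. They held 111888 of 210381 in WT replicate 1 and 370358 of 515856 in Tbx1+/- replicate 1. In replicate 2 they held 623619 of 823200 in WT and 484802 of 787082 in Tbx1+/-. Tissue, the isolation of nuclei (bone was pulverised) and free RNA cannot be told apart here, so differences in endothelial barcodes are given beside the same differences over all barcodes of the tissues. In edgeR's quasi-likelihood test 2417 of 13963 genes (17.3%) were higher in the PF/F and 2156 (15.4%) lower, with a median log2 difference of 0.00. With annotated Endothelial nuclei alone on the PF/F side, 10.3% of 13506 genes were higher and 13.2% lower. Flt1, Pecam1 and Cdh5 chose the barcodes and were not compared. Of the 13 other pan-endothelial genes 7 were called higher in the PF/F and 1, Emcn, lower. Their median log2 difference was 0.67, against -1.60 over all barcodes. Their summed level was 4573 to 6508 CPM in PF/F libraries and 4119 to 4389 CPM in PTB libraries, so general endothelial genes were shifted upward as well.

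Barrier transporters were higher in the PF/F: 12 of 15 were called higher and 0 lower, with a median log2 difference of 2.75, while over all barcodes the median of the same genes was -0.39. With annotated nuclei alone 13 were called higher. Slco1c1 lay between 770.0 and 1381 CPM in the 4 PF/F libraries and between 27.2 and 60.4 CPM in the 4 PTB libraries, a log2 difference of 4.81 (SE 0.29, edgeR adjusted p 7.12e-08) against -0.51 over all barcodes. Tfrc lay between 718 and 1069 CPM in the PF/F and between 64.4 and 80.1 CPM in the PTB (3.56, SE 0.16, against -0.94). The libraries of the tissues did not overlap for either gene. Slc2a1 ranged from 314 to 454 CPM and from 48.2 to 76.1 CPM (2.68, SE 0.20, against -0.39), and Mfsd2a from 219 to 363 and from 4.99 to 12.6 CPM (5.06, SE 0.25, against 1.21). The organic anion carrier Slc22a8 and the lactate carrier Slc16a1 differed by 4.24 and 5.05 (0.45 and 0.55 over all barcodes), and Abcb1a by 1.63 (-1.16 over all barcodes). The efflux pump gene Abcg2 was at 263 ± 33.2 CPM in the PF/F and 254 ± 14.7 CPM in the PTB, a log2 difference of 0.06 (SE 0.13, against -1.15 over all barcodes). Slco1a4 differed by 0.21 (SE 0.37, against -2.87), with PF/F libraries from 36.4 to 271 CPM around the PTB range of 86.1 to 106 CPM.

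Junction genes and regulators of the barrier were compared in the same way. Of 9 tight junction genes 6 were higher and 0 lower. Cldn5 ranged from 1589 to 2629 CPM in PF/F libraries and from 96.3 to 268 CPM in PTB libraries (4.04, SE 0.35, adjusted p 1.30e-06 in edgeR), with 1.29 over all barcodes. Lsr and Ocln differed by 3.04 and 2.29, with -0.78 and -1.09 over all barcodes. Among 16 transcription factors 10 were higher and 1, Elk3, was lower. Foxq1 was at 91.8 ± 23.3 CPM against 5.54 ± 2.16 CPM (4.15, SE 0.29, against 0.05 over all barcodes), and Foxf2, another forkhead gene, differed by 2.65 (against -0.95). Erg and Mecom were at 182 CPM or more on average in the endothelial barcodes of both tissues. They differed by 1.10 and 0.79 (-3.56 and -3.86 over all barcodes). The call of Mecom was lost without the WT PF/F library of replicate 2 (0.58, edgeR adjusted p 0.0627). Of 15 Wnt pathway genes 7 were higher, among them the receptor genes Fzd6 and Adgra2, and 3 lower. The targets Apcdd1, Notum, Axin2 and Lef1 were higher by 4.15, 2.63, 1.51 and 1.05, with 0.93, -2.78, 0.34 and -2.96 over all barcodes. The lower genes were the receptor and co-receptor genes Lrp5, Tspan12 and Reck, at -1.17, -0.61 and -0.73 (-2.64, -0.39 and -0.76 over all barcodes). With annotated nuclei alone 6 of the 15 were higher and 3 lower. Among annotated PF/F nuclei, Axin2 was at 40.8 ± 12.2 CPM in endothelial nuclei and 134 ± 56.3 CPM in pericytes. Adgra2 was at 84.4 ± 38.0 and 90.7 ± 24.3 CPM. The part of pericyte transcripts in the differences of Axin2 and Adgra2 was not tested.

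**Figure D5:**
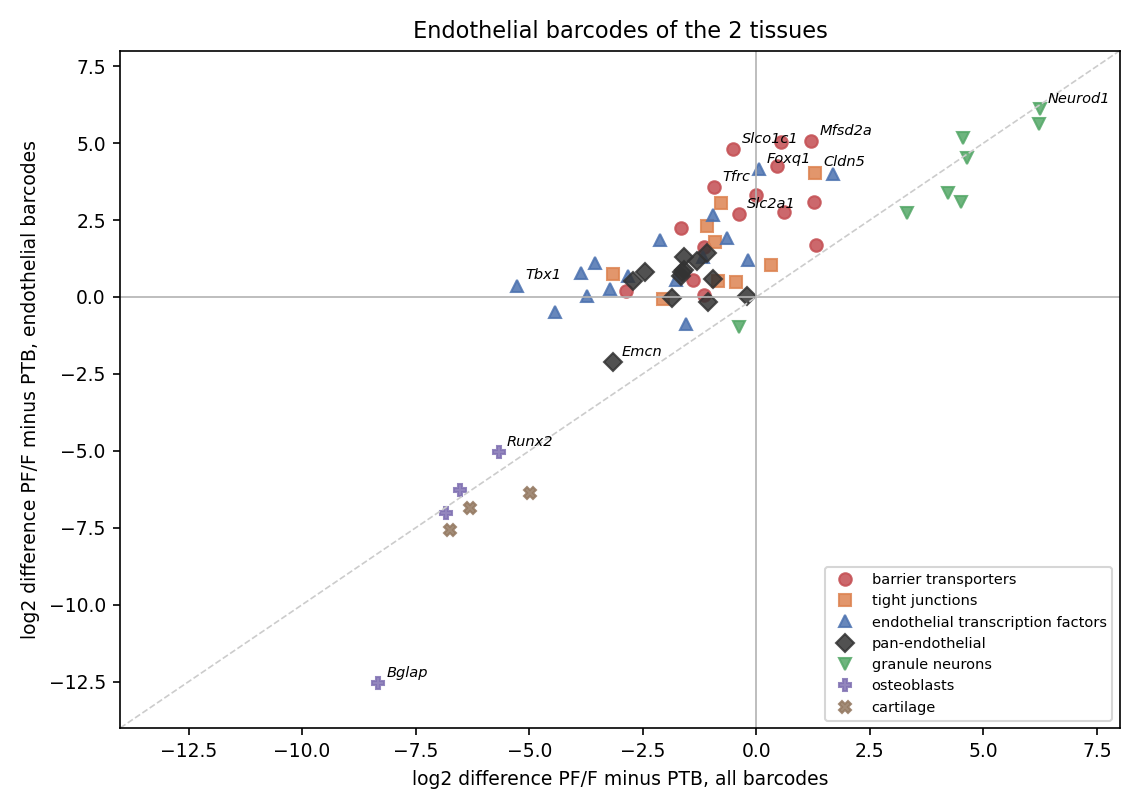
Difference between PF/F and PTB (log2, PF/F minus PTB), in endothelial barcodes on the vertical axis and over all barcodes on the horizontal axis, for genes of 7 lists; on the dashed line both differences are equal. Barrier transporters such as Tfrc (3.56 against -0.94) lie above the line, while most granule neuron, osteoblast and cartilage genes lie nearer to it. Bglap, the lowest point, had no UMI in the PF/F barcodes, so its place on the vertical axis depends on the fit and is no measured fold.

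Genes of permeability and of vein identity differed in both directions. Of 7 caveolae and permeability genes 4 (Plvap, Cav1, Cavin2 and Cavin3) were lower in the PF/F. The endothelial nitric oxide synthase gene Nos3 was the 1 higher gene, by 1.23 (-0.49 over all barcodes). With annotated nuclei alone 3 of the 7 were lower and 1 higher. Of 8 venous genes 3 (Slc38a5, Vwf and Ackr1) were higher and 3 (Ephb4, Vcam1 and Selp) lower. With annotated nuclei alone 2 of 7 tested were higher and 3 lower. The summed level of the venous genes was 803 to 991 CPM in the PF/F and 335 to 371 CPM in the PTB. Plvap had 6 UMIs of 2336519 in the PF/F and 1526 of 19646667 in the PTB, with PF/F libraries at 0 to 4.86 CPM and PTB libraries at 51.0 to 109.7 CPM (-4.83, SE 0.44, edgeR adjusted p 2.22e-06, against -1.63 over all barcodes). Selp, the adhesion molecule P-selectin of venules, had 0 UMIs in the PF/F and 202 in the PTB, which is at least 8.01-fold lower at a floor of 3 counts over all PF/F libraries. Cav1, the coat protein of caveolae, and Emcn differed by -1.20 and -2.12, with -3.20 and -3.16 over all barcodes. Nrp2, a co-receptor of lymphatic and venous endothelium, was at 131 ± 52.0 CPM against 685 ± 45 CPM (-2.28), and Smad6, an inhibitor of BMP signalling, differed by -2.19, with -4.87 and -4.74 over all barcodes. Slc38a5 had the smallest p-value of the genes that were higher: it ranged from 317 to 419 CPM in the PF/F and from 3.88 to 9.18 CPM in the PTB (5.93, SE 0.24, against 1.6 over all barcodes). Vwf was higher by 2.90, Kdr by 1.30 and the arterial connexin gene Gja4 by 1.66, with -0.26, -1.59 and -0.62 over all barcodes. Efnb2 was lower, with a log2 difference of -1.36 and -1.04 over all barcodes.

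Tbx1 and its known targets were measured in the endothelial barcodes of both tissues, which in the PTB include the 361 with a bone annotation. Tbx1 was at 9.51 to 36.8 CPM in PF/F libraries and 20.7 to 30.2 CPM in PTB libraries, a log2 difference of 0.37 (SE 0.26, edgeR adjusted p 0.284), while over all barcodes it was lower in the PF/F by a log2 difference of -5.26. In the PTB the endothelial barcodes held 30.2 (25.9 to 35.0) and 24.3 CPM (19.9 to 29.4) in the WT libraries of replicates 1 and 2. The Tbx1+/- libraries held 24.0 (20.1 to 28.5) and 20.7 CPM (16.5 to 25.7). WT replicate 2 and Tbx1+/- replicate 1 thus had nearly the same value and interval. Among the unannotated PTB barcodes alone both of these libraries were at 25.5 CPM, so the genotypes did not separate. No test was made. The level over all PTB barcodes was 39.3 and 46.3 CPM in WT and 27.6 and 40.1 CPM in Tbx1+/-, above that of the endothelial barcodes in each library, and in the PF/F it was 0.156 to 0.693 CPM. Flt4 was at 73.4 ± 5.74 CPM in the PF/F and 79.1 ± 10.7 CPM in the PTB (-0.07, SE 0.16, against -2.01 over all barcodes), and the libraries overlapped. Dll4 was at 58.6 ± 29.2 and 20.8 ± 6.99 CPM (1.46, SE 0.34, edgeR adjusted p 0.00408, against 0.39 over all barcodes), and with annotated nuclei alone its difference was 0.98 (SE 0.46) and did not pass the test.

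Transcripts of neighbouring cells moved with the tissue as well. Granule neuron genes were higher in the PF/F barcodes for 7 of 8, with a median of 3.95 against 4.53 over all barcodes and summed levels of 439.6 to 538 CPM against 110.0 to 117 CPM. All 5 osteoblast genes were lower, with a median of -7.01 and summed levels of 33.0 to 52.3 CPM against 2779 to 3743 CPM, as were 5 of 7 fibroblast genes and all 3 cartilage genes tested. The defining osteoblast gene Bglap was at 0 in all PF/F libraries. The 10 genes with the smallest p among the lower ones, which included the skeletal regulator Runx2 and the collagen genes Col24a1, Col12a1 and Col11a1, were all lower over all barcodes too. Pericyte genes were higher for 9 of 10, at 1336 to 1882 CPM against 431 to 506 CPM, but with annotated nuclei alone 2 were higher and 2 lower. Erythroid genes were higher for 4 of 5, and with annotated nuclei alone 0 of 5 were called. Among the 10 genes of smallest p that were higher in the PF/F, Slc40a1, the iron exporter ferroportin, differed by 3.10 and by -2.31 over all barcodes. Slc1a4, a neutral amino acid carrier, differed by 4.43 and, in the same direction, by 1.48. The part of free RNA and of neighbouring cells in each difference was not tested.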

How the data were processed

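Nuclei of the PF/F and the petrous temporal bone (PTB) of WT and Tbx1+/- mice were profiled by droplet sequencing of the 3′ ends of transcripts, in 8 libraries. The deposited counts are unnormalized UMI counts of each gene in each barcode; the submitters' processing notes name Cell Ranger 7.0.0 and mm10, and reads in introns are included. The deposited annotation gives a type for each kept nucleus and an expected count, the UMIs per nucleus after the authors removed estimated free RNA with SoupX; it served only for the ratio of corrected to raw UMIs. The annotation and the marker rule were applied by library and barcode. Gene coordinates are from GENCODE vM21, where 32158 of 32285 features (99.6%) were found, and promoters from RefSeq on GRCm38.p6.

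UMIs were summed per library, since cells are not replicates. Genes were tested with edgeR 4.0.16 in R 4.3.3 (quasi-likelihood test, TMM factors, filterByExpr, Benjamini-Hochberg adjustment over all genes tested) and called at an adjusted p under 0.05 and over 1.5-fold. The genotype fit had no covariate and the tissue fit had genotype as one. Numbers of nuclei per type were tested with edgeR with all nuclei as the offset at a false discovery rate of 0.1. Alternatives were DESeq2 1.42.0, other scaling factors, no filter, a replicate block, leaving out each library, other choices of nuclei and, added after seeing the data, leaving out 2 nuclei rich in erythroid UMIs or the annotated PTB barcodes. With 2 libraries per genotype, exact permutation has a smallest p of 0.33, so single values were given no test of that kind. Replicate numbers were not tied to batches in the sources used here, so they were not taken to pair libraries. The study repeated the procedure on further mice in a separate experiment, and which litters entered each pool is not stated. The p-values measure the spread between these pools of 5 mice. By the paper's account both tissues were dissected from the same groups of mice, so PF/F and PTB libraries may share animals. The main tissue fit took them as independent.

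The tests were tried on simulated counts with known changes: at a log2 change of 2 the genotype fit recovered 57.5% of 1000 changed genes with 40 false calls over 5 runs of 4447 genes, and at a log2 change of 1 the tissue fit recovered 51.7% of 1000 with 32 false calls over 5 runs of 13966 genes. The text names the markers, members of the lists of endothelial and other cell type genes, the 20 leading genes by ratio, the 5 genes of smallest p between genotypes, and genes among the 10 of smallest p in each direction between tissues. Bglap, Gja5 and other list members were singled out after their values were seen. The members and lists were chosen with earlier results of these data known. Intervals (Wilson for shares, exact Poisson for UMIs) cover counting error only.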

Additional observations from a re-analysis of the deposited data

How the results depend on the processing

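Between genotypes, 0 of 4447 genes were called, and the count was 0 as well with the replicate block, RLE factors or DESeq2, without the deepest 8% of nuclei, in marker-checked nuclei, with the unannotated barcodes, and without the 2 erythroid-rich nuclei, with or without the block. It was 7 with no filter on low counts and ran from 1 to 9 with 1 library left out. Each of those 4 fits rests on an arm with 1 library that is assumed to vary like the other arm. The endothelial share differed by 0.26 on the log2 scale, by 0.50 with the replicate block (SE 0.40), and by -0.50 to 1.78 with 1 library left out: it reversed without the WT library of replicate 1 (-0.50) and without the Tbx1+/- library of replicate 2 (-0.0013). The block changed no call among the named results of the comparisons. Deviations of same-numbered WT and Tbx1+/- libraries from their group means correlated at 0.0268 in the endothelial sums (4447 genes) and at 0.550 over all annotated nuclei (20756 genes). With 1 library left out Cldn5 ran from -0.27 (without the WT library of replicate 2) to 0.78 and Flt1 from -0.071 (without the Tbx1+/- library of replicate 2) to 0.31. Flt1 reversed to -0.17 without the deepest 8% of nuclei and Slco1a4 to -0.32 with the unannotated barcodes; none passed a test. The causes were not tested. The Tbx1 difference of 22.8 CPM ran from 5.51 to 40.1 CPM with 1 library left out. Tbx1 failed the filter, so the block, RLE and DESeq2 gave no value, and with no filter its log2 difference was 0.70 (SE 0.80). The Tbx1 level of 29.5 CPM ran from 22.4 to 36.5 CPM.

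Between tissues, 4573 genes were called, and 3169 to 5764 under the alternatives, with 4710 under the replicate block. Without the filter 2460 genes were higher and 3304 lower of 25043. Over 43 of the named genes and 684 alternative fits, 5 gave another direction or side of the threshold. Flt4 ran from -0.16 to 0.0048 (without the WT PTB library of replicate 1). Slco1a4 ran from -0.38 (without the WT PF/F library of replicate 1) to 0.60 and reversed to -0.59 with annotated nuclei. Dll4 (0.98, annotated nuclei) and Mecom (0.58, without the WT PF/F library of replicate 2) no longer passed. The depth of the WT library of replicate 1, 65387 UMIs in 15 nuclei, limits every genotype value.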

Other observations

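The 15 endothelial nuclei with a Tbx1 UMI were a little deeper than the others, at a median of 3413 UMIs, against 2876 UMIs in the 166 nuclei with no Tbx1 UMI that were not rich in erythroid UMIs. The 16 endothelial transcription factor genes were at 5479 CPM against 5337 CPM. Tbx1 is one of them, and the split puts all of its 20 UMIs in the first value, so the order of these values is no result. Pan-endothelial genes were at 7949 CPM (exact Poisson interval 7277 to 8666) against 9399 CPM (9153 to 9650). Barrier transporters were at 4877 CPM (4354 to 5446) against 7293 CPM (7076 to 7515), and genes of the Wnt pathway at 1698 CPM (1395 to 2046) against 2620 CPM (2491 to 2754). Pericyte genes were at 46.3 CPM (9.55 to 135) against 401 CPM (352 to 456). Venous genes, at 695 CPM (507 to 929) against 624 CPM (562 to 692), and sprouting genes, at 587 CPM (415 to 805) against 510.4 CPM (454 to 571), had intervals that overlapped. These nuclei were split by a measured gene, come from 3 of the 4 libraries and were given no test.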
